A study of Mus musculus with 7 samples.

Results

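The mitotic spindle, kinetochore and cytokinesis genes are 48 genes that carry a cell from the end of DNA replication through chromosome segregation to the separation of its daughters. They were taken by symbol from a list of named genes, proposed with earlier results of these data in view, from the 21965 genes counted in contused spinal cord of mice labelled *Bmal1-/-* and of WT mice. All 48 were found in the count table and all 48 were among the 15743 genes with enough counts to be tested.

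In a dividing cell, *Cdk1* bound to cyclin A or B starts mitosis, Aurora and Polo-like kinases build the spindle, and kinesins move along its microtubules. Kinetochores tie chromosomes to the spindle, and a checkpoint holds the ligase APC/C until every chromosome is attached. Most of these mRNAs are made in the G2 and M phases and are scarce in resting cells, so in tissue they follow how many cells divide. After spinal cord injury (SCI), dividing cells of a contusion include microglia, infiltrating macrophages, oligodendrocyte precursor cells (OPCs), astrocytes, endothelial cells (ECs) and fibroblasts.

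The libraries were made from the 5 mm segment around a T9 contusion of 50 kdyn, collected 3 days after injury (dpi 3), with 1 library per mouse. *Bmal1-/-* mice carry the germline *Arntl* tm1Bra allele (B6.129-Arntltm1Bra/J C57BL/6 in the labels, C57Bl/6J in the study's methods), so that the deletion is present in all cells and through development, and the WT mice carry no such allele. Mice were 8 to 10 weeks old. The 3 mice labelled *Bmal1-/-* were 2 females and 1 male, and the 4 WT mice were 2 females and 2 males. By the study's account 1 WT mouse was a littermate of the *Bmal1-/-* mice and the others were bought. No uninjured cord is among the libraries, so every value describes injured tissue.

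The targeted gene went against its label, while 2 clock genes that BMAL1 activates went with it. *Arntl*, the gene name of *Bmal1* (chr7:113207465-113314126, GRCm38), was at 24.1, 24.2 and 22.5 counts per 1000000 of the library (CPM) in libraries labelled *Bmal1-/-* and at 14.7, 15.3, 11.9 and 13.4 CPM in WT. The log2 fold change was 0.77 ± 0.10 (SE; edgeR's quasi-likelihood test, adjusted p = 0.0155). These counts cover the whole gene and do not separate the deleted exons from the rest, so they do not check the deletion. *Nr1d1*, the clock repressor REV-ERB alpha, was at 5.31, 5.41 and 7.28 CPM in libraries labelled *Bmal1-/-* and at 36.4, 36.8, 29.2 and 34.4 CPM in WT (-2.51 ± 0.15, adjusted p = 0.000456). *Dbp*, a transcription factor of clock output, was at 8.72, 7.80 and 8.83 CPM against 27.5, 29.4, 25.3 and 39.3 CPM (-1.85 ± 0.16, adjusted p = 0.00328). Neither gene overlapped between the groups. These 2 genes were looked up after the *Arntl* values were seen, and the libraries are called by their labels throughout.

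Library totals ran from 38529644 to 44096737 counts, and single mitotic genes had 144 to 8830 counts in a library, so the spread between mice and not counting set the precision. WT replicate 3 stood apart. Its mitotic genes were the highest of the 7 libraries in 47 of 48 cases, with a median of 1.57 times the mean of the other WT libraries, and its neuron markers summed to 2097 CPM where the other WT libraries had 3751 to 5088. Counts and medians that WT replicate 3 moves by over 1.5 times are also given without it. Separate mice were used, but the genotypes differ in source as well as in allele, and these cannot be told apart.

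Mitotic genes were lower as a body in libraries labelled *Bmal1-/-*. Of the 48 genes, 47 had a log2 fold change below 0, where 51.1% of all genes tested did, and their median was -0.91 against -0.01 over all genes. The exception was *Anln*, which encodes anillin, an actin-binding scaffold of the cleavage furrow. In 44 genes every library labelled *Bmal1-/-* lay below every WT library, where 13.5% of all genes tested did so. The other 4, *Bub1b*, *Cenpa*, *Kif22* and *Anln*, had overlapping groups.

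After adjustment over all genes tested, 4 of the 48 passed 0.05, all of them lower: *Ckap2*, *Prc1*, *Hmmr* and *Aspm*. Of all genes tested, 0.915% were called lower and 0.654% higher. A further 21 mitotic genes had adjusted p-values between 0.05 and 0.1, and 23 were at or above 0.1. Before adjustment 47 of the 48 had p under 0.05 and a lower level, against 12.2% of all genes. DESeq2 called 42 of the 48 lower, where it called 5.63% of all genes lower. Without WT replicate 3 edgeR called 24 of them, against 2.8% of all genes, although the median shrank to -0.71. Both the lower count of calls in the full comparison and the larger fold changes there therefore went with a single WT mouse. In bulk tissue, fewer dividing cells and less mitotic mRNA per cell cannot be told apart.

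The sum over the 48 genes showed the same separation. It was 1113, 1096 and 863.9 CPM in libraries labelled *Bmal1-/-* and 1573, 1356, 2262 and 1680 CPM in WT. Without *Anln* the sums were 942.8, 891.3 and 697.4 CPM against 1435, 1174, 2107 and 1479 CPM. As a share of all counts the 48 genes took 0.0852% to 0.110% in libraries labelled *Bmal1-/-* and 0.137% to 0.230% in WT. The lowest WT library, replicate 2, stood above the highest library labelled *Bmal1-/-*, replicate 1.

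**Figure D1:**
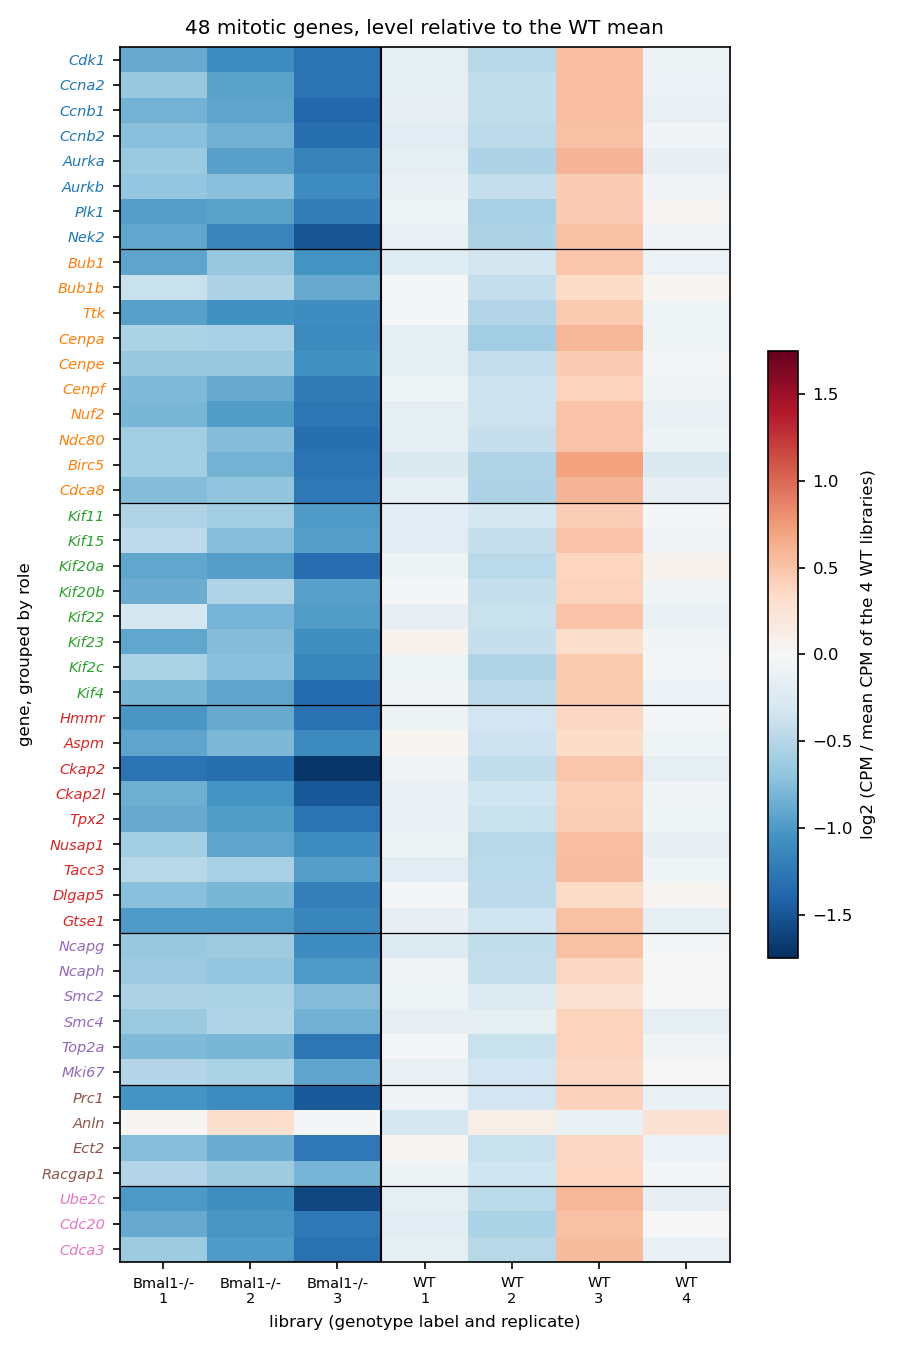
Level of each of the 48 genes (rows, coloured by role) in each of the 7 libraries (columns), as log2 of CPM over the mean CPM of the 4 WT libraries, with blue for lower and red for higher. The columns labelled *Bmal1-/-* are blue throughout except for *Anln*, with medians of -0.74, -0.82 and -1.18, and WT replicate 3 is the only column that is red in nearly all rows, with a median of 0.46.

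The heat map of levels relative to the WT mean shows that the genes moved up and down together from mouse to mouse. Replicate 3 was the lowest of the libraries labelled *Bmal1-/-* for all 48 genes, and WT replicate 2 was the lowest WT library for 46. Within WT the median level relative to the WT mean ran from -0.41 in replicate 2 to 0.46 in replicate 3 on the log2 scale.

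The lowest level relative to WT belonged to *Ckap2* (chr8:22168160-22185819), which encodes a protein that stabilizes spindle microtubules. *Ckap2* was at 15.6, 15.2 and 11.7 CPM in libraries labelled *Bmal1-/-* and at 36.7, 28.2, 53.4 and 34.2 CPM in WT. Its highest value in libraries labelled *Bmal1-/-* thus lay well below the lowest WT value. The means were 14.2 ± 2.15 (SD, n = 3) and 38.1 ± 10.8 CPM (SD, n = 4), a WT level 2.69 times the other. The log2 fold change was -1.43 ± 0.23 (SE; edgeR, adjusted after Benjamini-Hochberg, adjusted p = 0.0329).

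*Prc1* (chr7:80294450-80316259) encodes the protein that bundles antiparallel microtubules of the spindle midzone, where cytokinesis is prepared. It was at 30.9, 29.5 and 22.8 CPM in libraries labelled *Bmal1-/-* and at 60.8, 50.2, 83.8 and 58.3 CPM in WT. The groups did not overlap, and WT replicate 3 was again the highest. Its log2 fold change was -1.19 ± 0.19 (SE; edgeR, adjusted p = 0.0339), with means of 27.7 ± 4.30 and 63.3 ± 14.4 CPM (SD, n = 3 and 4).

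*Hmmr* (chr11:40701395-40733422) encodes a hyaluronan receptor that also sits at spindle poles. Its levels were 11.2, 12.3 and 9.14 CPM against 21.3, 18.02, 29.1 and 22.2 CPM in WT, with a log2 fold change of -1.06 ± 0.18 (SE; edgeR, adjusted p = 0.0416). *Aspm* (chr1:139454772-139494091), whose product focuses microtubule minus ends at the poles, was at 12.1, 13.3 and 10.6 CPM against 23.5, 17.9, 28.7 and 21.7 CPM in WT. The log2 fold change of *Aspm* was -0.94 ± 0.17 (SE; edgeR, adjusted p = 0.0465). For both genes the groups did not overlap.

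These calls stood close to the threshold. Each of the 4 genes passed in only 2 of the 7 fits that left out 1 library, those without WT replicate 2 or WT replicate 3. Over those 7 fits the log2 fold change stayed between -1.55 and -1.22 for *Ckap2*, between -1.29 and -1.03 for *Prc1*, between -1.16 and -0.92 for *Hmmr* and between -1.04 and -0.81 for *Aspm*. The adjusted p-values reached 0.158, 0.155, 0.181 and 0.211 in the same order.

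**Figure D2:**
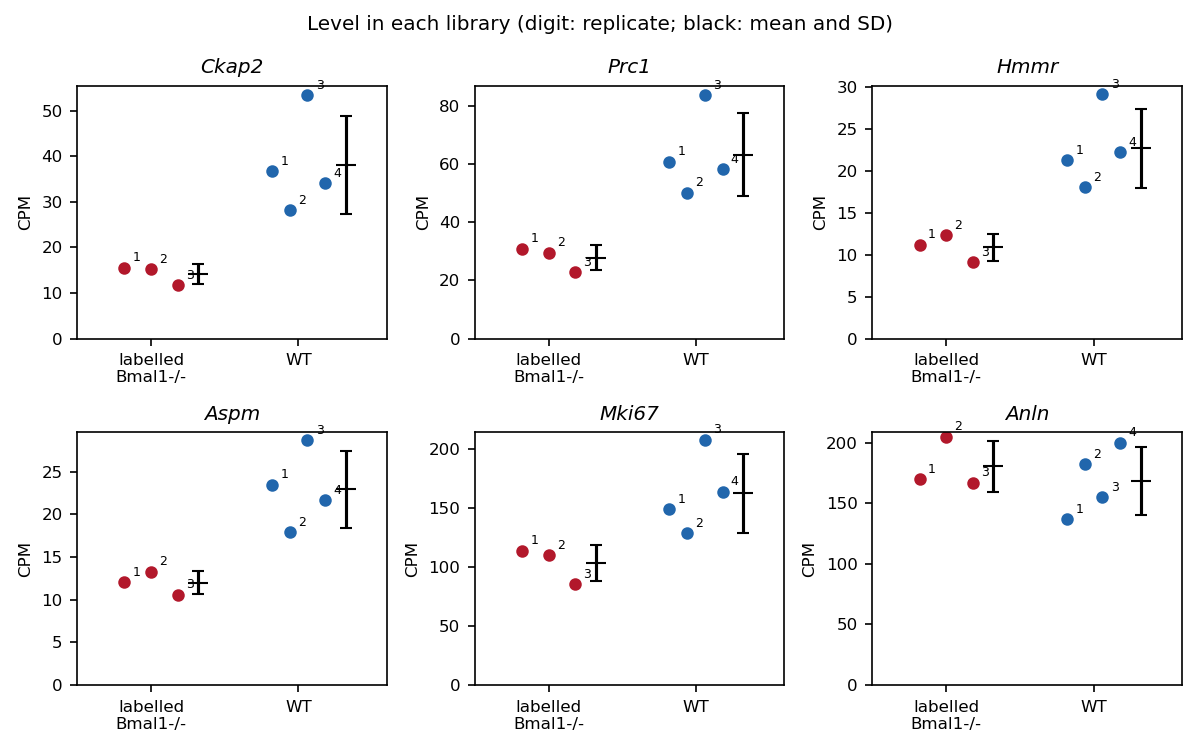
CPM in each library (points, digit for the replicate) with the mean and SD of each group (black) for the 4 called genes, for *Mki67* and for *Anln*. For the first 5 genes the red points of the libraries labelled *Bmal1-/-* lie below all blue WT points, while for *Anln* the groups overlap between 137 and 205 CPM.

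The plot of CPM by library shows *Anln* beside the called genes. *Anln* (chr9:22332012-22389188) was at 170, 205 and 167 CPM in libraries labelled *Bmal1-/-* and at 137, 182, 155 and 200 CPM in WT, with a log2 fold change of 0.10 ± 0.14 (SE; edgeR, adjusted p = 0.675). Its groups overlapped and WT replicate 3, the highest library for the other 47 genes, was second lowest among WT. Anillin is also a component of myelin, where it scaffolds septin filaments, and oligodendrocytes are abundant in cord. The summed CPM of 8 oligodendrocyte markers ran from 23380 to 28820 in libraries labelled *Bmal1-/-* and from 23690 to 34750 in WT, and 0 of those 8 markers passed. Whether the *Anln* counts come from oligodendrocytes was not tested.

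Promoters bear on genes that move together. The promoter of many mitotic genes holds a CHR element (cell cycle genes homology region, TTTGAA), which the DREAM and MuvB complexes bind, and 1 or more CCAAT boxes bound by NF-Y. BMAL1 itself binds the E-box CACGTG together with CLOCK. The sequences below are those of the 4 called genes and of *Anln*, from RefSeq promoters of GRCm38.p6, each running from 120 bases before to 30 bases after the annotated start and written 5′ to 3′ on the gene's strand. Capitals mark the CHR element TTTGAA, the box CCAAT and the E-box CACGTG, found on either strand. On the opposite strand the CHR element reads TTCAAA and the box reads ATTGG.
Ckap2, chr8:22185790-22185939, minus strand: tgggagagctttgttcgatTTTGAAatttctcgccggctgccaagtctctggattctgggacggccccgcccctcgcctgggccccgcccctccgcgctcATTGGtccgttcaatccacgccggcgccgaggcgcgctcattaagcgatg
Prc1, chr7:80294331-80294480, plus strand: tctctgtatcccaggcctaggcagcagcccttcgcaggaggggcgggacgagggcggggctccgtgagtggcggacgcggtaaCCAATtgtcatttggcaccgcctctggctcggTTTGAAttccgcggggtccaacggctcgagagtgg
Hmmr, chr11:40733408-40733557, minus strand: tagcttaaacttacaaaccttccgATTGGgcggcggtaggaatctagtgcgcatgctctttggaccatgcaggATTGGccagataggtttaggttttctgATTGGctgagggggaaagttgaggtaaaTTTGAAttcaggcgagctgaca
Aspm, chr1:139454653-139454802, plus strand: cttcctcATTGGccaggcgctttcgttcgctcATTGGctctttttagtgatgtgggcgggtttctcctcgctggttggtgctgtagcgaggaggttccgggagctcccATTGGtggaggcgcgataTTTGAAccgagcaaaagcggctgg
Anln, chr9:22389177-22389326, minus strand: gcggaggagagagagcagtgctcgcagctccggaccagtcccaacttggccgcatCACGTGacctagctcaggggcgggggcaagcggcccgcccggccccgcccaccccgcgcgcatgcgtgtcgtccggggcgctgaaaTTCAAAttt

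All 5 promoters held TTTGAA, and the 4 called genes also held CCAAT, while *Anln* held none in the window of 250 bases before to 50 after its start and held CACGTG instead. Counted from the annotated start, the first base of TTTGAA lay at -101 in *Ckap2*, at -5 in *Prc1*, at 9 in *Hmmr* and at 7 in *Aspm*. *Hmmr* held 5 CCAAT boxes in the full window, the most upstream at -172.

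RefSeq promoters were at hand for 42 of the 48 genes. TTTGAA was found in 32 of the 42 (76.2%), against 15.4% of 16506 promoters of the same length, and CCAAT in 32 (76.2%), against 38.6%. Both were present in 27 (64.3%), against 6.29%. TTTGAA lay within 50 bases of the start in 29 of the 42 (69.0%), against 3.96% of all promoters. At least 2 CCAAT boxes were found in 22 (52.4%), against 13.1%. CACGTG was found in 2 promoters, those of *Anln* and *Ttk* (4.76%, against 8.14%), and the E2F motif, TTTCCCGC or its other form TTTGGCGC, in 2 (4.76%, against 2.2%). Each motif was searched on both strands and none contains another. A match is a run of letters and not a measured site.

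**Figure D3:**
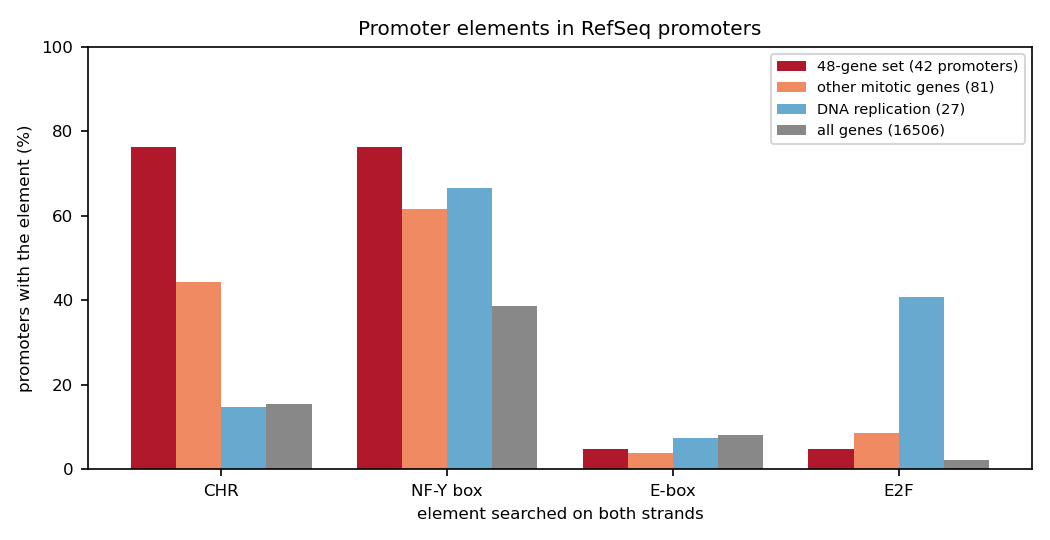
Share of RefSeq promoters (vertical axis, percent) that hold each element (the CHR, the NF-Y box, the E-box and the E2F motif), for the 42 mitotic genes with a promoter, 81 other mitotic genes, 27 DNA replication genes and all 16506 promoters. The mitotic genes have the tallest bar for CHR, at 76.2%, and the DNA replication genes for E2F, at 40.7%.

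The plot of promoter elements sets these genes beside other cell cycle genes. Among 81 promoters of other mitotic genes 44.4% held TTTGAA and 61.7% CCAAT. Among 27 promoters of DNA replication genes TTTGAA was at 14.8%, CCAAT at 66.7% and the E2F motifs at 40.7%. CACGTG was in 3.7% of the other mitotic promoters and in 7.41% of the replication promoters. Among 15 promoters of regulators of mitotic transcription and entry, which the plot leaves out, CACGTG was in 4 (26.7%, against 8.14% of all promoters). In these regulators TTTGAA was at 26.7%, CCAAT at 53.3% and the E2F motifs at 26.7%. Within the mitotic genes the fold change was set beside the motif, without a test. The median log2 fold change was -0.92 in the 32 with TTTGAA and -0.87 in the 10 without. It was -0.94 in the 32 with CCAAT and -0.78 in the 10 without, *Anln* among them.

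The genes were next taken by role, beginning with the kinases and cyclins, of which 8 of 8 were lower and did not overlap and 0 passed. Their log2 fold changes ran from -1.17 to -0.83 with a median of -0.98, and DESeq2 called 8 of 8. Over all genes tested, 13.5% had every library labelled *Bmal1-/-* below every WT library, edgeR called 0.915% lower and DESeq2 called 5.63% lower. These shares stand beside the counts of every role. *Ccna2*, cyclin A2, was at 36.8, 30.4 and 23.7 CPM in libraries labelled *Bmal1-/-* and at 51.9, 43.0, 83.3 and 54.2 CPM in WT, with a log2 fold change of -0.94 ± 0.25 (SE; edgeR, adjusted p = 0.115). *Nek2*, a kinase that separates centrosomes, was at 10.5, 8.87 and 6.93 CPM against 18.1, 13.6, 28.2 and 19.1 CPM, the largest difference of this group (-1.17 ± 0.26, adjusted p = 0.0797). *Aurkb*, the kinase of the chromosomal passenger complex, was at 11.5, 11.1 and 8.58 CPM against 17.0, 13.8, 25.2 and 17.9 CPM, the smallest (-0.83 ± 0.21, adjusted p = 0.110). WT replicate 3 was the highest library for all 3 of these genes. *Cdk1*, the kinase that drives mitosis, *Ccnb1* and *Ccnb2*, its B-type cyclins, *Plk1*, the Polo-like kinase, and *Aurka*, the kinase of spindle poles, lay between *Nek2* and *Aurkb* in log2 fold change.

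Of the 10 genes of the kinetochore, the checkpoint and the passenger complex, 10 were lower, 8 did not overlap and 0 passed, with a median log2 fold change of -0.87. *Ttk*, the kinase Mps1 that starts the checkpoint, had the fewest reads of all 48 genes, at 4.02, 3.74 and 3.65 CPM against 7.63, 5.45, 10.7 and 7.36 CPM (-1.03 ± 0.22, adjusted p = 0.0746). *Cenpf*, a large protein of the outer kinetochore, was at 23.1, 21.5 and 16.9 CPM against 37.7, 30.7, 51.9 and 38.0 CPM (-0.95 ± 0.19, adjusted p = 0.0646). *Bub1b*, which encodes the checkpoint protein BubR1, had the smallest difference, at 20.4, 18.5 and 14.5 CPM against 26.1, 20.1, 33.5 and 27.3 CPM (-0.59 ± 0.19, adjusted p = 0.164). For *Bub1b* the groups overlapped, since the highest library labelled *Bmal1-/-* exceeded WT replicate 2. *Cenpa*, the histone variant that marks centromeres, overlapped too, at a log2 fold change of -0.72. *Cenpe*, the kinetochore motor, *Nuf2* and *Ndc80*, of the complex that grips microtubules, *Bub1*, a checkpoint kinase, and *Birc5* and *Cdca8*, the passenger proteins survivin and borealin, lay between *Ttk* and *Cenpa*.

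The 8 kinesins were lower by a median of -0.78 on the log2 scale, 7 of them without overlap, and 0 passed. *Kif20a*, a motor of the central spindle, had the largest difference, at 15.9, 15.3 and 11.9 CPM against 28.0, 21.5, 38.6 and 31.1 CPM (-1.05 ± 0.21, adjusted p = 0.0595). *Kif11*, the motor Eg5 that pushes spindle poles apart, had the most reads of its role, not scaled to length, at 21.2, 20.01 and 15.4 CPM against 26.6, 24.7, 41.2 and 30.03 CPM (-0.70 ± 0.20, adjusted p = 0.136). *Kif22*, a motor on chromosome arms, was at 17.0, 12.05 and 10.8 CPM against 19.2, 16.1, 29.9 and 19.4 CPM (-0.67 ± 0.25, adjusted p = 0.196). Its replicate 1 labelled *Bmal1-/-* exceeded WT replicate 2, so *Kif22* was the kinesin whose groups overlapped. Exons of *Kif20a* share 1271 bases with *Cdc23* on the opposite strand.

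Spindle assembly held 3 of the 4 calls (*Ckap2*, *Hmmr* and *Aspm*) and had a median of -1.04 over its 9 genes, none of which overlapped between the groups. *Tpx2*, which activates Aurora A and seeds microtubules near chromosomes, had the most reads of its role, not scaled to length, at 29.8, 28.0 and 22.4 CPM against 50.9, 42.0, 74.3 and 52.3 CPM (-1.04 ± 0.20, adjusted p = 0.0579). *Tacc3*, which cross-links spindle microtubules, had the smallest difference, at 27.5, 26.2 and 19.7 CPM against 33.8, 27.8, 56.1 and 36.8 CPM (-0.66 ± 0.25, adjusted p = 0.200). The highest *Tacc3* value labelled *Bmal1-/-* stood just below the lowest WT value. The paralog of *Ckap2*, *Ckap2l*, had a log2 fold change of -1.10 ± 0.21 and missed the threshold.

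Condensin and chromosome genes differed less, with a median of -0.71 over 6 genes, all without overlap and 0 of them passing. *Mki67*, whose product Ki-67 coats mitotic chromosomes and is the common stain for cycling cells, was at 114, 110 and 85.8 CPM against 149, 129, 208 and 164 CPM (-0.65 ± 0.18, adjusted p = 0.121). *Top2a*, the topoisomerase that untangles sister chromatids, was at 72.7, 71.4 and 51.8 CPM against 122, 94.8, 163 and 119 CPM (-0.93 ± 0.20, adjusted p = 0.0744). *Smc2*, a core subunit of condensin, was at 26.8, 26.6 and 23.0 CPM against 37.2, 33.0, 46.6 and 39.2 CPM (-0.62 ± 0.12, adjusted p = 0.0652). *Smc2* had the smallest fold change of the group and also the smallest standard error of all 48 genes. The other condensin genes *Smc4*, *Ncapg* and *Ncaph* had log2 fold changes from -0.78 to -0.67.

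Of the 4 cytokinesis genes *Prc1* was called lower, *Anln* overlapped, and the others were lower without overlap and did not pass. Between them were *Ect2*, the exchange factor that activates RhoA at the furrow, at -0.94 ± 0.20, and *Racgap1*, a subunit of centralspindlin, at -0.64 ± 0.17. The 3 genes of the ubiquitin ligases were lower without overlap, with a median of -1.04, and 0 passed. *Ube2c*, the ubiquitin-conjugating enzyme of the APC/C, was at 16.0, 15.3 and 10.7 CPM against 28.6, 23.2, 48.1 and 29.0 CPM (-1.20 ± 0.27, adjusted p = 0.0807). *Cdca3*, which targets the kinase Wee1 for destruction, was at 21.5, 16.8 and 13.4 CPM against 29.8, 23.8, 48.8 and 30.5 CPM (-0.95 ± 0.27, adjusted p = 0.133). *Ube2c* had a larger fold change than the called gene *Prc1* but a wider error, which left it above the threshold. *Cdc20*, the APC/C activator held back by the checkpoint, was at a log2 fold change of -1.04.

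**Figure D4:**
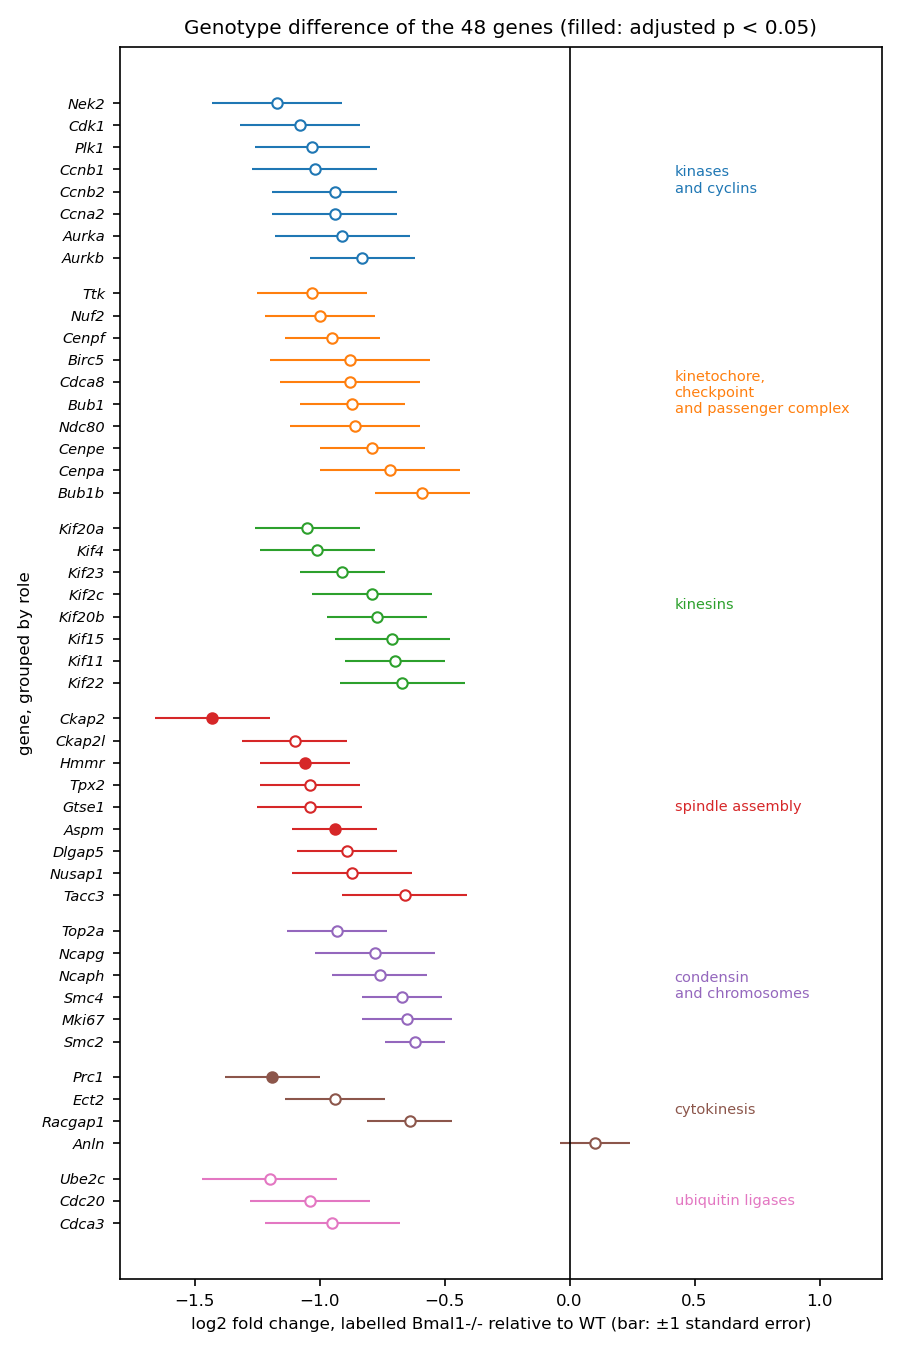
Log2 fold change of each of the 48 genes in libraries labelled *Bmal1-/-* relative to WT (points, with bars of ±1 SE), grouped and coloured by role, filled where the adjusted p from edgeR was under 0.05. Of the points 47 lie left of 0, between -1.43 for *Ckap2* and -0.59 for *Bub1b*, and the single point right of 0 is *Anln* at 0.10.

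The plot of fold changes by role shows ranges that overlap between roles. The role medians ran from -1.04 for spindle assembly and the ubiquitin ligases to -0.71 for condensin and chromosomes, and no difference between roles was tested. Besides the kinases and cyclins, DESeq2 called 7 of 10 genes of the kinetochore group, 7 of 8 kinesins and 8 of 9 spindle assembly genes. It called 6 of 6 condensin and chromosome genes, 3 of 4 cytokinesis genes and 3 of 3 ubiquitin ligase genes, against 5.63% of all genes. Without WT replicate 3, edgeR called 4 of 8 kinases and cyclins, 4 of 10 genes of the kinetochore group, 3 of 8 kinesins, 6 of 9 spindle assembly genes, 3 of 6 condensin and chromosome genes, 2 of 4 cytokinesis genes and 2 of 3 ubiquitin ligase genes. The role medians then ran from -0.82 to -0.54, and 2.8% of all genes were called lower.

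To see which genes departed from the common difference, each level was divided within its library by the geometric mean of the 47 genes other than *Anln*. On the log2 scale that mean was 4.01, 3.93 and 3.58 in libraries labelled *Bmal1-/-* and 4.65, 4.34, 5.22 and 4.69 in WT, a difference of -0.88 between the group means. After the division 39 of the 47 genes differed by less than 0.25 between the groups. The difference was below that band for *Ckap2* (-0.52), *Prc1* (-0.30), *Ube2c* (-0.29) and *Nek2* (-0.26), and above it for *Bub1b* (0.30), *Smc2* (0.27), *Tacc3* (0.26) and *Racgap1* (0.26).

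*Ckap2* stood farthest from the rest. Relative to the geometric mean it was at -0.03 ± 0.03 (SD, n = 3) in libraries labelled *Bmal1-/-* and at 0.49 ± 0.06 (SD, n = 4) in WT, so that the wide spread of its CPM within WT was nearly all shared with the other mitotic genes. Set against *Mki67* alone, the log2 ratio of *Ckap2* was -2.87, -2.86 and -2.88 in libraries labelled *Bmal1-/-* and -2.02, -2.19, -1.96 and -2.26 in WT. These ratios show unequal change and not which gene moved, they were singled out after the values were seen, and they carry no test.

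Per kilobase of exon, the mitotic genes of WT cord spanned more than a 10-fold range. *Anln* was the highest at 18.6 CPM per kb, followed by *Mki67* at 16.2, *Ccna2* and *Ccnb2* at 14.2, and *Top2a* and *Cdc20* at 13.8. The lowest were *Kif15*, a spindle kinesin, at 1.30 and *Ttk* at 1.58 CPM per kb. In the libraries labelled *Bmal1-/-* *Mki67* was at 10.3 and *Ccna2* at 7.41 CPM per kb, while *Anln* was at 19.9. Neighbours in this order, such as *Mki67* and *Ccna2* in WT, differed by less than the spread of either between mice. Much of that spread was shared by the genes of a library, so it does not measure how certain their order is. *Mki67* was above *Ccna2* under both labels, and the order was not tested.

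The difference had the same sign in both sexes. Between 2 females of each label the median log2 ratio over the 48 genes was -0.49, with 47 genes lower and 44 below both WT females. Between the 1 male labelled *Bmal1-/-* and the 2 WT males it was -1.40, with 48 lower. In a fit with a term for sex by genotype, the log2 fold change of males minus that of females had a median of -0.87 over the 48 genes. With 1 male labelled *Bmal1-/-* that value rests on a single mouse, so it does not show whether the sexes differ in size. That male is replicate 3 labelled *Bmal1-/-*, the lowest of its group, and WT replicate 3, the highest library, is also male, so sex and single libraries cannot be told apart here.

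Other genes of the same pathway were taken from lists. Of 96 other mitotic genes 88 were lower, and the median log2 fold change was -0.65. In 73 of them every library labelled *Bmal1-/-* lay below every WT library, where 13.5% of all genes tested did so. Among the 96, 2 passed, both lower, where 0.915% of all genes were called lower. *Sgo2a*, a shugoshin that guards centromeric cohesion, was at 7.42, 7.20 and 6.12 CPM against 13.9, 10.5, 16.3 and 12.7 CPM (-0.95 ± 0.16, adjusted p = 0.0402). *Kntc1*, a kinetochore protein that recruits dynein and checkpoint proteins, was at 8.11, 8.87 and 6.98 CPM against 14.0, 11.6, 15.8 and 13.1 CPM (-0.77 ± 0.14, adjusted p = 0.0451). DESeq2 called 48 of the 96 lower, where it called 5.63% of all genes lower. Without WT replicate 3 edgeR called 18 lower, against 2.8% of all genes.

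Among 22 regulators of mitotic transcription and entry, 18 were lower and 0 passed, with a median of -0.38. *Foxm1*, the transcription factor that turns on G2/M genes, had the smallest p, at 20.9, 19.6 and 17.2 CPM against 33.1, 29.0, 46.2 and 34.8 CPM (-0.90 ± 0.16, adjusted p = 0.0503). Its groups did not overlap, and its fold change was close to the median of the 48 mitotic genes. All 35 DNA replication genes, which act in the preceding S phase, were lower with a median of -0.65. Of these 1 passed, *Gins2*, a subunit of the replicative helicase, with a log2 fold change of -1.10 ± 0.20 (adjusted p = 0.0495), and of the 7 leave-one-out fits it passed only in the one without WT replicate 3. Of the 35, DESeq2 called 24 lower, where it called 5.63% of all genes lower. Without WT replicate 3 edgeR called 24 lower, against 2.8% of all genes, and the median of the 35 was -0.46. Without that library 4 of the 22 regulators were called and their median was -0.25. With it, DESeq2 called 6 of the 22 regulators lower. In 11 of the 22 every library labelled *Bmal1-/-* lay below every WT library, where 13.5% of all genes tested did so.

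Markers of the cell types in the lesion were set beside the mitotic genes. Over all genes tested 51.1% were lower, and 0.915% were called lower by edgeR and 5.63% by DESeq2. Without WT replicate 3 edgeR called 2.8% of all genes lower. Of 10 EC markers 10 were lower, with 1 called (*Cdh5*, vascular cadherin) and a median log2 fold change of -0.62. Their summed CPM ran from 440.6 to 516.2 in libraries labelled *Bmal1-/-* and from 540.4 to 924.5 in WT, without overlap and with WT replicate 3 the highest. Without WT replicate 3 the EC median was -0.39 with 3 called. Of 10 macrophage markers 8 were lower, 0 passed and the median was -0.60. Their sums overlapped, at 2181 to 2952 CPM against 2143 to 4285 CPM, again with WT replicate 3 the highest. Without it the macrophage median was -0.26 with 1 called, and DESeq2 called 3 of the 10 in the full set. For 8 microglia markers the sums were 1149 to 1364 CPM against 1215 to 1542 CPM, with 6 lower and 0 passing.

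The sums of 8 OPC markers were 1281 to 1370 CPM in libraries labelled *Bmal1-/-* and 1083 to 1286 CPM in WT, with 2 lower and 0 passing. Astrocyte markers summed to 15830 to 18170 CPM against 10170 to 14850 CPM, without overlap, and 6 of the 8 were higher and 2 lower, with 0 passing. *Gfap* alone, at 10000 to 12700 CPM against 7460 to 10000 CPM, made up most of these sums. One of the higher markers, *Gja1*, was at 0.02 ± 0.20 with overlapping groups, and at -0.13 without WT replicate 3. The lower markers were *Aldh1l1* (-0.47 ± 0.13, adjusted p = 0.133) and *Slc1a3* (-0.44 ± 0.15, adjusted p = 0.176), an enzyme and a glutamate transporter of astrocytes. Both were called lower by edgeR without WT replicate 3, and DESeq2 called *Aldh1l1* lower in the full set. Of 9 fibroblast markers 8 were lower, with 1 called (*Fmod*, fibromodulin) and a median of -0.51. Their sums overlapped, from 437.4 to 2479 CPM in libraries labelled *Bmal1-/-* and from 1314 to 2079 CPM in WT. In the libraries labelled *Bmal1-/-* replicate 2 was the high library for fibroblast markers but lay between the others for the mitotic genes. Of 8 pericyte markers 5 were lower and 0 passed (median -0.25), with sums of 316.7 to 401.5 CPM against 409.7 to 480.0 CPM that did not overlap. The 8 neutrophil markers were lower with 0 passing, a median of -0.70 that became -0.29 without WT replicate 3, and overlapping sums of 32.74 to 62.93 CPM against 38.06 to 128.0 CPM. The 8 neuron markers were all higher with 0 passing, and their sums of 5171 to 6196 CPM against 2097 to 5088 CPM did not overlap. Their median was 0.47, and 0.25 without WT replicate 3. The share of each cell type in the mitotic difference was not tested.

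**Figure D5:**
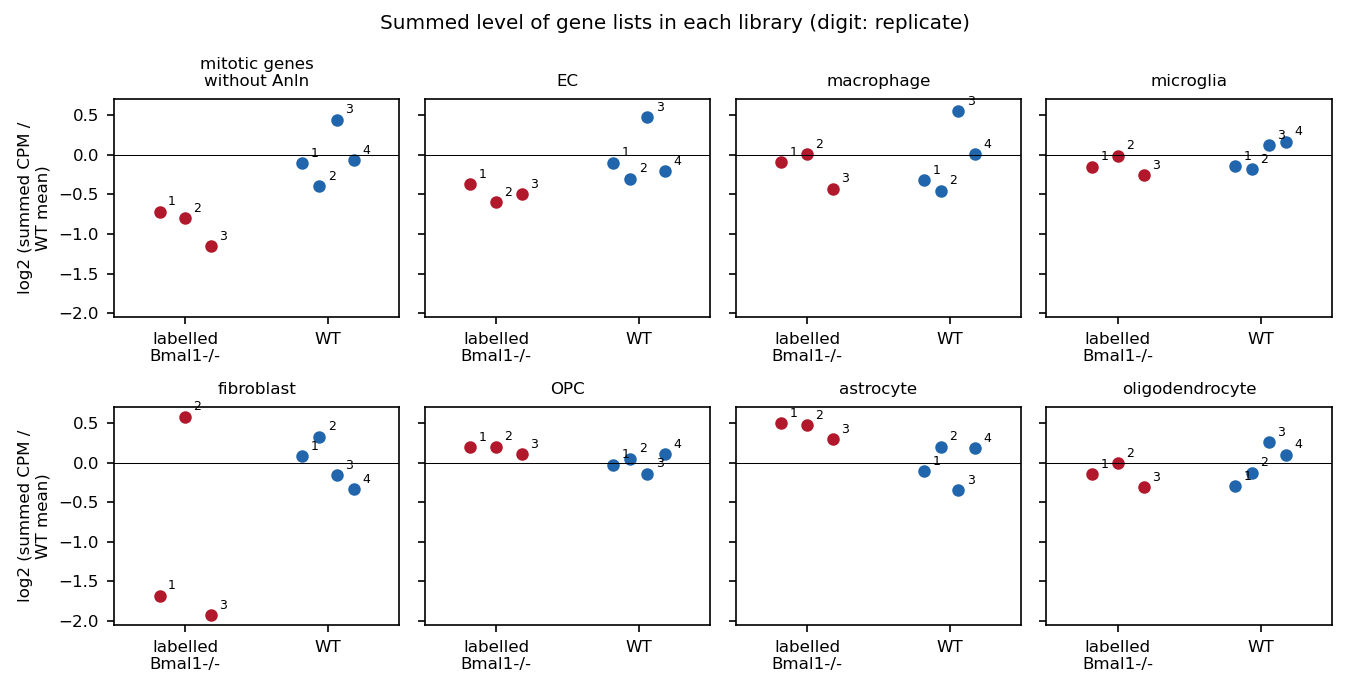
Summed CPM of the 47 mitotic genes without *Anln* and of 7 marker lists in each library, as log2 relative to the WT mean (vertical axis), with points coloured by label and digits for replicates. The mitotic genes, at the upper left, and the EC markers are lower in all 3 libraries labelled *Bmal1-/-* than in all 4 WT libraries, WT replicate 3 is the highest for mitotic, EC and macrophage genes, and fibroblast markers spread widely among the libraries labelled *Bmal1-/-*.

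The plot of summed levels shows these lists side by side. Markers of skeletal muscle, red cells and Schwann cells also differed, and where these transcripts came from was not tested. Summed skeletal muscle markers were 4.98 to 6.60 CPM in libraries labelled *Bmal1-/-* and 45.7 to 59.8 CPM in WT, and red cell markers were 26.1 to 60.0 CPM against 148.8 to 450.9 CPM. All 6 muscle markers were lower with 5 called, and all 5 red cell markers with 1 called (*Hbb-bt*, a beta globin). Without WT replicate 3 edgeR called 5 of the 5 red cell markers, as did DESeq2 in the full set. The 5 Schwann cell markers tested were also lower, with 1 called (*Egr2*, a myelination factor). Over all 6 listed Schwann cell markers the sums were 154.6 to 210.5 CPM against 235.4 to 554.6 CPM. Of the 5 tested, 2 were called by edgeR without WT replicate 3 and 5 by DESeq2 in the full set. Markers of thoracic cord position, the Hox genes, were at 239.3 to 266.7 CPM against 184.5 to 236.5 CPM, with 0 of 6 passing. The part of dissection or blood in the mitotic difference was not tested.

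Gene models limit some single values. Exons of 14 of the 48 genes, among them *Prc1*, *Kif20a*, *Ube2c* and *Nek2*, overlap a gene on the opposite strand, and *Top2a* overlaps a small nucleolar RNA on its own strand. Since the strand setting of the counting is not given in the sources used here, reads of such pairs may have been shared. The 33 genes without any overlap had a median log2 fold change of -0.88 and held 3 of the 4 calls.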

How the data were processed

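RNA was sequenced from the contused T9 segment at dpi 3 of 3 mice labelled *Bmal1-/-* and 4 WT mice. Per the labels, the authors made poly-A libraries with a stranded kit, checked reads with FastQC 0.10.1 and counted them per gene with HTSeq 0.10.0 on GRCm38. The paper's methods name Tophat2 as the aligner. The annotation release and the strand setting are not given in the sources used here. The deposited values are raw counts per gene, without normalization. Of 21965 genes, 3039 had no count in any library.

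From these counts, genes were filtered with filterByExpr (15743 remained), normalized with TMM and tested for genotype with the quasi-likelihood test of edgeR 4.0.16 (limma 3.58.1, R 4.3.3), with Benjamini-Hochberg adjustment over all genes tested and a threshold of 0.05. CPM are counts scaled by the TMM-adjusted library total, and fold changes are labelled *Bmal1-/-* over WT. The common dispersion was 0.0342. Total counts of 38529644 to 44096737 per library make counting error small for these genes. The scripts were tested on simulated data.

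Gene IDs were matched to symbols, positions and exon lengths with GENCODE release 21 for mouse (21939 matched), and promoters came from RefSeq (250 bases before to 50 after the start). The genes named with full values are, in each role, the called genes, the one with the highest mean CPM and those with the most and least negative fold change, and in other lists the called genes or the one with the smallest p. The *Prc1*, *Hmmr* and *Aspm* promoters were added because these genes were called. The members, roles, marker lists and rules were chosen with earlier results of these data known. The alternatives took DESeq2 1.42.0 or limma-voom as the test, RLE or upper-quartile as the normalization, and looser (any count) or stricter (mean count of 10) filters. Others added sex or the replicate number as a term, corrected for GC content and gene length, or left out each library in turn. The fit with the replicate number left out WT replicate 4, which has no library labelled *Bmal1-/-* of the same number. Figures used matplotlib 3.10.9 and python 3.11.15.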

Additional observations from a re-analysis of the deposited data

Results flagged for a closer look

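In 2 of 49 genes examined (the 48 mitotic genes and *Arntl*), 1 WT library stood far from the other 3. *Birc5*, the passenger protein survivin, was at 50.0 CPM in WT replicate 3 and at 21.3 to 25.9 CPM in the other WT libraries, a gap of 0.839 of the group's range, past Dixon's critical value for 4 samples. *Smc4*, a condensin subunit, was at 72.4 CPM in WT replicate 3 against 48.8 to 49.9 CPM, a gap of 0.954 of the range. Chance alone places about 1 in 20 groups past that value. For both genes the library is the one that was highest for 47 of the 48 mitotic genes. Without it the log2 fold change was -0.55 for *Birc5* and -0.51 for *Smc4*, and the adjusted p of edgeR's quasi-likelihood test was 0.129 and 0.0240.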

How the results depend on the processing

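The median log2 fold change of the mitotic genes was -0.91 and lay between -0.94 and -0.87 under the alternatives and between -1.04 and -0.71 when each library was left out, with 47 of the 48 genes lower in each of these fits, and 0 were called higher in any. The count called lower was far less stable. It was 4 with edgeR, 42 with DESeq2, 2 with limma-voom, 0 with sex as a covariate and 0 with the replicate block, and it ran from 0 to 24 when 1 library was left out: 24 without WT replicate 3, 7 without WT replicate 2, and 0 without any other. With the block 33 of the 48 had an unadjusted p under 0.05, and with sex as a covariate 43. Of the other mitotic genes 2 were called, 48 with DESeq2, 1 with upper-quartile normalization, 0 each with limma-voom, sex as a covariate, the block and the GC content and length trend removed, and 0 to 18 with 1 library left out. Over all genes 144 were called lower and 103 higher, DESeq2 called 922 and 573, and the block called 0 and 0. Leaving out 1 library gave 27 to 439 lower and 30 to 291 higher. *Arntl* stayed at 0.77 but did not pass with the block (adjusted p = 0.226), and it ranged from 0.71 to 0.82 with 1 library left out, losing its call without any 1 library labelled *Bmal1-/-* or without WT replicate 4. The block pairs libraries by replicate number and so leaves out WT replicate 4. Libraries with the same number did not deviate together (correlations of -0.174, 0.183 and -0.295 for replicates 1, 2 and 3). These values gave no sign that the numbers pair mice. Replicates 1 and 2 were females and replicate 3 was male under both labels, so the block also takes up sex. Whether a call lost under the block reflects a weaker effect was not tested. The cause of these differences was not tested. Depth limits no mitotic gene here, since the lowest count was 144.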
